A study of Mus musculus with 6 samples.

Results

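Long noncoding RNA genes are transcribed by RNA polymerase II and, for the most part, cleaved and polyadenylated like messenger RNAs, but they carry no long open reading frame. The sites described here are poly(A) sites in the exons of such genes in the developing mouse retina. A site was taken if its 3′ edge lay in an exon of a same-strand GENCODE M21 gene of 1 of 6 types (lincRNA, antisense, processed_transcript, sense_intronic, sense_overlapping or bidirectional_promoter_lncRNA), lay in no exon of a same-strand protein-coding gene and was not mitochondrial. The rule found 843 sites in 591 genes, of 32688 sites in the table and 32670 outside the mitochondrial genome (the nuclear sites). It used annotation alone and no measured value, though the members and the gene lists used below were chosen with earlier results of these data known.

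The data are PA-seq counts of 3′-end tags, primed with an anchored oligo(dT) so that 1 tag marks 1 poly(A) end and its strand. Retinas of C57BL/6J mice were taken before birth at E13.5, E15.5 and E18.5 (embryonic days) and after birth at P0, P6 and P21 (postnatal days). No genotype other than the strain and no treatment is named in the labels, and the number of animals behind a library is not given in the sources used here. The labels give 1 sample for each stage, and its 2 count columns, headed R1 and R2 with no meaning stated, were added and not used as replicates. Every p value therefore sets a trend along stage order over 6 libraries against their scatter about it.

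The 6 libraries held 3266638 to 4635128 nuclear tags. Levels are given as CPM (counts per 1000000 nuclear tags), scaled by the TMM factors of edgeR, and 3 tags in a library, used as a floor, correspond to 0.616 to 0.953 CPM. Summed progenitor markers were 2285 CPM at E13.5 and 576 CPM at P21 with 6 of 6 genes measured, and rod markers, also 6 of 6, were 646 and 4035 CPM. Lens markers, with 14 of 15 measured and Crygd without a site, ran from 250.3 CPM at P6 to 3019 CPM at E15.5 and 4207 CPM at P0, so the E15.5 and P0 libraries stand apart in lens RNA. Red cell markers fell from 649 CPM at E13.5 to 48.3 CPM at P0 with 4 of 7 measured (Hba-a1, Hba-a2 and Hbb-bs without a site), while pigment epithelium markers ran from 61.9 to 832 CPM with 5 of 7 measured (Rdh5 and Rpe65 without a site). Vessel markers ran from 169 to 370.1 CPM and microglial markers from 93.7 to 179 CPM. Their part in the results below was not tested.

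The 591 genes were mostly genes with a single site: 452 had 1 site and 139 had 2 or more, up to 14 in Malat1. The lincRNA type, meant for genes apart from coding genes, held 345 sites in 229 genes, though D930028M14Rik below lies opposite a coding gene. The antisense type, of genes that overlap a coding gene on the opposite strand, held 257 sites in 187 genes. The rest were 167 sites of processed_transcript genes, 55 of genes that start beside a coding gene's promoter in the opposite direction, 16 of sense_intronic genes and 3 of sense_overlapping genes. Sites of 1 gene share its transcription and are not independent.

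Cleavage of most transcripts follows a hexamer, AATAAA or a close variant, that the cleavage and polyadenylation specificity factor binds a short way upstream of the cut. In the last 40 bases of transcript before the 3′ edge, AATAAA was present at 477 of the 843 sites, 56.6%, against 56.8% of 22158 sites in coding exons. ATTAAA without AATAAA was present at 15.7%, against 16.7%, and neither these nor any of 8 further hexamers at 12.7%, against 12.1%. The further hexamers were the AGTAAA form, the TATAAA form, the CATAAA form, the GATAAA form, the AATATA form, the AATACA form, the AATAGA form and the ACTAAA form. Only the transcript strand was searched. Where a site had several hexamers, the first in this order was counted, wherever in the 40 bases it lay. In these letters the noncoding sites were like sites in coding exons.

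The following sequences are the 40 transcript bases that end at the 3′ edge of sites on which results below turn, written 5′ to 3′ from GENCODE M21 transcripts (GRCm38), with the hexamer in capitals. The first 4 are sites that fell and the others are sites that rose with stage. Their hexamers begin 19 to 28 bases before the edge in the falling sites and 18 to 31 in the rising ones. These sites were picked, and each has AATAAA or ATTAAA. Of all noncoding sites called below, AATAAA was present at 50% of the 52 that fell and 61% of the 200 that rose. None of the hexamers searched was present at 23.1% and 10.5%. These differences were not tested.
D930028M14Rik: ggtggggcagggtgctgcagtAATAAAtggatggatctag
AU020206: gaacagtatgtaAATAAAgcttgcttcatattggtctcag
Lockd: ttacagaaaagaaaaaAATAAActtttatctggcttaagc
Six3os1: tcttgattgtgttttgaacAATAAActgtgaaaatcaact
Uckl1os: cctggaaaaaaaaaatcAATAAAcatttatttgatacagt
A530058N18Rik: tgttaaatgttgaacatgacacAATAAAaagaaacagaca
5830408C22Rik: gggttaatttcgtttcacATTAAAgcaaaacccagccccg
Pantr1: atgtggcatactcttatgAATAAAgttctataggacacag
Meg3: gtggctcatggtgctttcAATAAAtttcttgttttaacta
Mir124-2hg: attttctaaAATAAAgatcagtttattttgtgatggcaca
Peg13: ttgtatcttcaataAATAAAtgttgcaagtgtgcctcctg

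Of the 843 sites, 503 (59.7%) lay within 24 bases of an annotated transcript end of their gene, and 817 lay in the last exon of a transcript. AATAAA was found at 67.8% of the sites at annotated ends and at 40% of those farther away. The same shares in coding exons were 68.2% and 40.9%. Where the bases after the edge were known from a transcript that runs on, 36 of 438 sites, 8.22%, were followed within 20 bases by a run of 6 A or by 7 A in 10 bases, against 7.48% in coding exons. Such A-rich stretches are places where oligo(dT) can prime inside a transcript. The counting scheme does not tell internal priming from a true end.

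Noncoding sites were thinly covered. A site had 41 to 18752 tags over the 6 libraries, with a median of 134, and its mean level ran from 1.62 to 795 CPM with a median of 5.72 CPM. The median over all nuclear sites was 9.33 CPM and over coding exons 15.7 CPM. The deposited enrichment score of a site, the authors' own value, had a median of 8.88 at the noncoding sites and 14.7 over all nuclear sites. The 10 sites with most tags held 22.7% of all tags at noncoding sites and the 50 with most tags 45.5%.

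The share of nuclear tags at noncoding sites rose along stage order. In stage order, the noncoding sites held 1.13%, 1.20%, 1.28%, 1.29%, 1.34% and 1.55% of nuclear tags. Each library lay above the one before it, and the 95% Wilson interval at E13.5, 1.12 to 1.14%, did not reach that at P21, 1.54 to 1.56%. PCR reads are not independent molecules, so these intervals and all others here cover counting error only. The share was 1.38-fold higher at P21 than at E13.5, with Spearman rho of 1 and Pearson r of 0.94 against stage order (two-sided exact permutation test over 720 orders, p = 0.00278 for both, the smallest p that 6 libraries allow). Without the E13.5 and P21 libraries r was 0.95, with an exact permutation p = 0.0833, the smallest possible for 4 libraries. In bulk tissue, fewer cells of a type and less RNA per cell cannot be told apart, here or below.

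Taken as classes, lincRNA and antisense sites passed the test for a rise, and the other types together did not. lincRNA sites held 0.528% of nuclear tags at E13.5 and 0.789% at P21, a 1.49-fold difference, and were higher at each stage than at the one before it (rho 1, exact permutation p = 0.00278, adjusted over the 3 classes 0.00834). Antisense sites held 0.205% at E13.5 and 0.327% at P21, a 1.59-fold difference, with P0 slightly under E18.5 (rho 0.94, exact permutation p = 0.0167, adjusted 0.025). That call on rho was lost without any 1 of E13.5, E15.5, P6 or P21 (rho 0.9, exact permutation p = 0.0833), while Pearson r, 0.92 over all 6 (adjusted p = 0.00834), was 0.876 to 0.965 in those 4 sets with exact p of 0.0167 to 0.0417. The other types together held 0.392% and 0.432%, with no order by stage (rho 0.49, exact permutation p = 0.356). They pool several gene types, among them bidirectional_promoter_lncRNA and processed_transcript, whose counts of rising and falling sites are given separately below. Those other types were not shown to differ from the first 2 classes, since that difference was not tested.

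**Figure D1:**
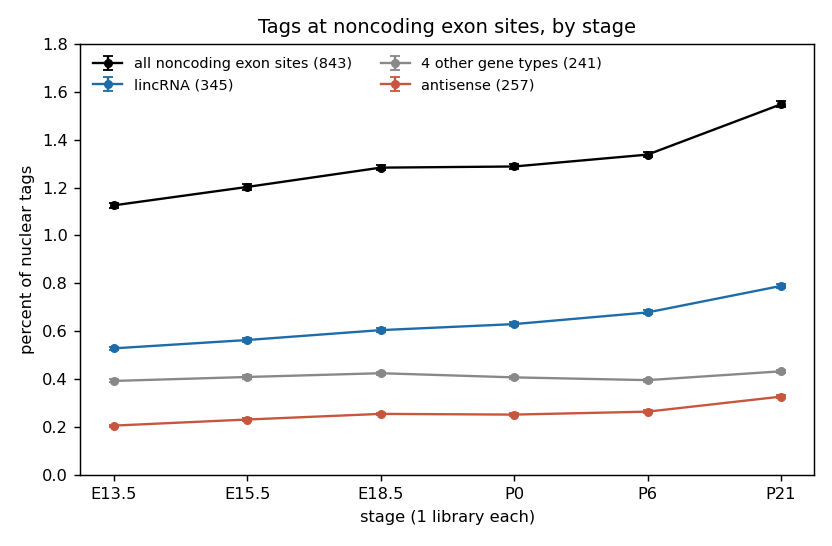
Percent of nuclear tags (y axis) by stage (x axis) at all 843 noncoding sites, at lincRNA sites, at antisense sites and at the other gene types together; points are single libraries and bars are 95% Wilson intervals. The line of all sites rises at every step from 1.13% to 1.55%, while the other types stay between 0.392% and 0.432%.

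The locus with most tags did not take part in the rise. Gm42418 and Gm26917 on chromosome 17 are gene models that cover ribosomal RNA sequence, and their 4 sites held 9.44% of the tags at noncoding sites. Their share of nuclear tags was 0.156% at E13.5 and 0.0928% at P21, with rho -0.6 (exact permutation p = 0.242) and Pearson r -0.80 (exact permutation p = 0.05) against stage order. Without E13.5 and P21 r was 0.090 (exact permutation p = 0.917). Neither of the 2 Gm42418 sites had any of the hexamers searched. Without these 4 sites the noncoding share was 0.969% at E13.5 and 1.46% at P21, a 1.5-fold difference, with rho again 1.

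Site by site, rises outnumbered falls. Each site was tested for a linear trend over the 6 stages with edgeR's quasi-likelihood F test, Benjamini-Hochberg adjusted over all 32592 nuclear sites tested, and called at an adjusted p of 0.05 or less. The fitted change is the log2 difference between P21 and E13.5 on that line, 5 steps apart. Of 839 noncoding sites tested, 200 rose, 52 fell and 587 did not pass. That is 23.8% rising and 6.2% falling, beside 15.1% rising and 8.96% falling over all nuclear sites, 24.0% in both directions. In coding exons 2776 of 22142 sites, 12.5%, rose and 2384, 10.8%, fell. The rises lay in 147 genes and the falls in 41.

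The whole distribution was shifted in the same direction. The median fitted change was 0.57 over the noncoding sites, 0.01 over all nuclear sites and -0.13 over coding exons. Observed ratios of P21 to E13.5, with counts under 3 set to 3, gave medians of 0.67, 0.01 and -0.16 on the log2 scale. The P21 library was the highest of the 6 for 346 noncoding sites, 41.0%, against 29.5% of all nuclear sites, and the E13.5 library for 109, 12.9%, against 20.9%. The calls lean on the ends of the series: without the P21 library 54 sites rose and 11 fell, and without E13.5 the numbers were 99 and 16. Without E15.5, 21 fell, and without P6, 27 fell. Without both E15.5 and P0, the libraries high in lens markers, 156 rose and 28 fell, a check added after seeing the data. In every fit that left out 1 library, 40 of the rising and 3 of the falling sites were called.

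**Figure D2:**
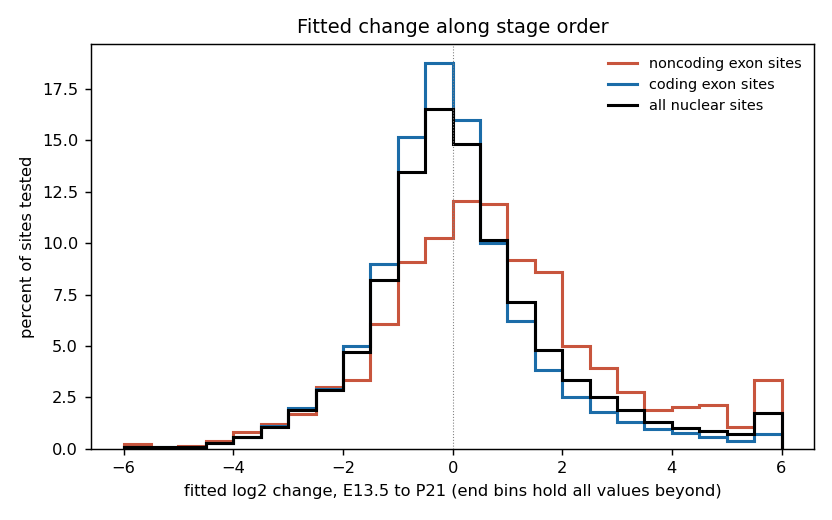
Percent of sites (y axis) in bins of fitted log2 change from E13.5 to P21 (x axis, bins of 0.5, the end bins holding everything beyond) for noncoding exon sites, coding exon sites and all nuclear sites. The noncoding line lies to the right, with a median of 0.57 against -0.13 in coding exons.

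The gene types differed in their counts. Over all nuclear sites 15.1% rose and 24.0% were called in both directions together. Of lincRNA sites 101 of 343 rose and 13 fell (29.4% rising, 33.2% called), with a median fitted change of 0.86. Antisense sites had 44 rises and 17 falls among 255, with a median of 0.30. Their shares, 17.3% rising and 23.9% called, were close to those of all nuclear sites. In processed_transcript genes 35 of 167 rose and 20 fell (21% rising, 32.9% called), with a median of 0.19. Genes at bidirectional promoters had 15 rises and 1 fall in 55 sites (27.3% rising, 29.1% called) and a median of 0.91. These are counts over sites that share genes, and the differences between types were not tested.

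Rises were no rarer at annotated ends than elsewhere. At annotated ends 122 of 500 sites rose (24.4%) and 29 fell (5.8%). Of 339 others 78 rose (23.0%) and 23 fell (6.78%). Over all nuclear sites 15.1% rose and 8.96% fell. Rises also outnumbered falls at both levels of abundance. Of sites with a mean of at least 10 CPM, 76 of 265 rose and 20 fell, beside 15.7% and 12.2% of nuclear sites of that level, and of those under 10 CPM 124 of 574 rose and 32 fell, beside 14.4% and 5.92%. Of 74 sites within 5000 bases downstream of, or in an intron of, a same-strand coding gene, where the tail of that gene could end, 16 rose and 0 fell (32 had an unadjusted p under 0.05). That is 21.6% called, beside 24.0% of all nuclear sites. Leaving these 74 out kept 184 rises and 52 falls. RefSeq gives a protein-coding symbol to 14 of the genes, with 23 sites, of which 1 rose and 3 fell (17.4% called).

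The largest rises came from levels near 0. Among rising sites with a mean of at least 5 CPM and at least 4 of 5 steps upward (107 sites), the 10 with the largest fitted change had 0 to 5 tags at E13.5. BC065403, antisense to Zfp280d (chr9:72409068-72409088, minus strand), measured 0.263, 0.775, 0, 0.318, 3.60 and 30 CPM in stage order. Its tags were concentrated in P21. The P21 to E13.5 ratio was 114 with a 95% counting interval of 20 to 4535, and the fitted change was 8.43 (SE 1.46, adjusted p = 0.00586). Without P6 or without P21 the site no longer met the level filter and was not tested.

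5830408C22Rik, opposite Plekha2, a gene for a phosphoinositide-binding adaptor (chr8:25102192-25102208, plus strand), measured 0, 1.03, 0.411, 0.635, 14.2 and 17.1 CPM. Both later postnatal libraries stood clear of the first 4, at least 21.7-fold higher at P21 than the floor at E13.5 (fitted change 7.33, SE 1.29, adjusted p = 0.00619). Where a library had no tags the fitted change depends on edgeR's prior count and is no bound. A530058N18Rik, opposite Gjd2, which encodes the gap junction protein connexin 36 (chr2:114032201-114032224, plus strand), measured 0.263, 1.81, 2.47, 2.54, 12.7 and 43.6 CPM. No step went down by stage order, and the ratio was 166 (interval 29.3 to 6582; fitted change 6.38, SE 0.72, adjusted p = 0.00178).

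Uckl1os, read from the strand opposite Uckl1, a uridine-cytidine kinase gene, had 2 of the 10. Its stronger site (chr2:181582090-181582142, plus strand) measured 1.32, 6.71, 3.49, 8.26, 49.2 and 143 CPM. The P6 and P21 libraries lay far above the others (ratio 109, interval 46.2 to 336; fitted change 6.37, SE 0.79, adjusted p = 0.0022). The other site (chr2:181585101-181585118) measured 0.263, 1.81, 0.205, 0.953, 6.48 and 32.9 CPM, and its call (fitted change 6.63, SE 1.2, adjusted p = 0.00696) was lost without P21.

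The remaining 5 were Gm4065, Gm10419, Pantr1, Gm48505 and E130310I04Rik, with fitted changes of 5.74 to 5.85. Pantr1, divergent from the neural POU-domain gene Pou3f3 (chr1:42648199-42648215, minus strand), measured 0, 1.81, 1.23, 1.91, 13.4 and 17.7 CPM, at least 22.4-fold higher at P21 (SE 1.0, adjusted p = 0.00574). E130310I04Rik, antisense to Mylk (chr16:34954574-34954601, minus strand), measured 1.05, 3.36, 3.70, 7.31, 45.4 and 43.3 CPM and levelled off after P6 (ratio 41.2, interval 15.8 to 153; SE 0.73, adjusted p = 0.00231). Gm10419 was at least 19.3-fold higher at P21 than the floor at E13.5 and Gm48505 had a ratio of 89.4 (interval 15.6 to 3572). The call of Gm4065 was lost without P21, and those of the other 4 were kept in every fit that left out 1 library.

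The 10 largest falls were smaller than the 10 largest rises and started from higher levels. D930028M14Rik, a lincRNA gene read opposite the POU-domain transcription factor gene Pou2f2 (chr7:25156604-25156625, plus strand), measured 257, 147, 59.4, 51.8, 17.1 and 17.9 CPM. It lost most of its level before birth (ratio 0.0698; fitted change -4.09, SE 0.36, adjusted p = 0.0015). AU020206 (chr7:75769040-75769060, minus strand) measured 80.3, 55.2, 42.3, 35.6, 10.3 and 9.63 CPM, with its largest step between P0 and P6 (fitted change -3.17, SE 0.45, adjusted p = 0.0031). Calls at both sites were kept in every fit that left out 1 library.

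Lockd, downstream of the cell cycle inhibitor gene Cdkn1b (chr6:134951520-134951574, plus strand), measured 154, 141, 163, 154, 31.0 and 17.7 CPM. It was level until P0 and low at P6 and P21, a shape a straight line follows poorly (fitted change -2.96, SE 0.92, adjusted p = 0.0474), and the call was lost without E15.5, E18.5, P6 or P21 and with the second columns alone. The other 7 of the 10 largest falls were Gm35394, D430020J02Rik, 3010003L21Rik, 2810410L24Rik, 2700038G22Rik, Zeb2os and a Six3os1 site, with fitted changes of -3.42 to -2.23. Each of these 7 calls was lost when at least 1 library was left out. Those of Gm35394 and 2700038G22Rik were lost without E13.5 alone, and that of 3010003L21Rik without P21 alone. D430020J02Rik and 2810410L24Rik lost theirs without E13.5, E15.5, P6 or P21. Days in place of stage order also ended the calls of Gm35394 and 2700038G22Rik, and the first columns alone those of 2700038G22Rik and 2810410L24Rik.

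**Figure D3:**
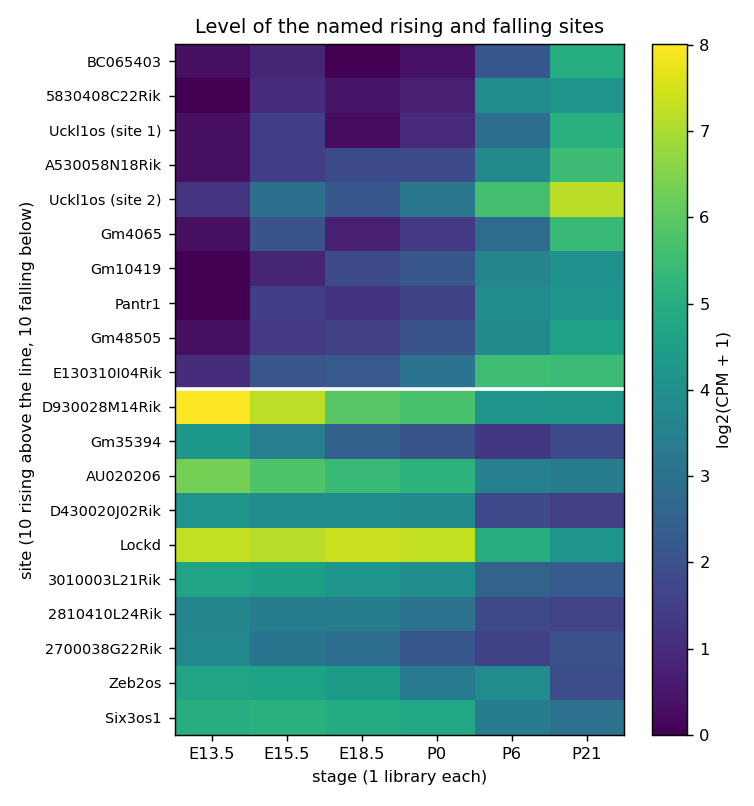
Heat map of log2(CPM + 1) (colour scale) by stage (columns) at the 10 sites with the largest rises, above the line, and the 10 with the largest falls, below it; each cell is 1 library. Uckl1os (site 1) is the site at 181585101 and (site 2) that at 181582090. The rising sites are dark, near 0, at E13.5 and brighter at P6 or P21, and D930028M14Rik is brightest at E13.5.

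Of the 10 sites with most tags, 4 rose (in 1700020I14Rik, Meg3, Mir124-2hg and Peg13), 1 fell (in Six3os1) and 5 did not pass. The longer of the 2 Gm42418 sites measured 907, 841, 755, 786, 847 and 636 CPM (fitted change -0.34, SE 0.18, adjusted p = 0.197) and the other 562, 339, 368, 339.9, 369 and 306 CPM (-0.62, SE 0.24, adjusted p = 0.0896). 1700020I14Rik, known as Oip5os1 or Cyrano, which directs the decay of a microRNA, measured 236, 264, 274, 319.9, 319 and 395 CPM at its main site (chr2:119607461-119607494, plus strand). It rose in small steps (fitted change 0.68, SE 0.17, adjusted p = 0.0209), a call lost without E13.5, E15.5 or P21 and with the first columns alone. An upstream site of the same gene, at chr2:119599910-119599926, fell from 5.79 to 0.803 CPM (fitted change -2.38, SE 0.65, adjusted p = 0.031), a call lost without E13.5, E15.5 or P21.

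Miat, a nuclear lincRNA of neurons and retinal precursors, measured 231, 267, 238, 382, 191 and 92.6 CPM at its main site, highest at P0 and lowest at P21. Its 7 sites had fitted changes of -2.29 to -0.62 and none passed (0 also at an unadjusted p under 0.05), at the main site -0.90 (SE 0.61, adjusted p = 0.314). H19, a maternally expressed imprinted RNA, measured 293, 267, 264, 319.6, 162 and 57.3 CPM, level until P0 and lower afterwards (fitted change -1.73, SE 0.64, adjusted p = 0.0802). Cct6a, which RefSeq gives as the coding gene of a chaperonin subunit, is typed processed_transcript in GENCODE M21 and is a noncoding gene here only by that label.

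In the imprinted Dlk1-Dio3 cluster on chromosome 12, Meg3 and Mirg rose at each of their measured sites. The cluster's noncoding RNAs, read from the maternal chromosome, include Meg3, Rian and Mirg and are host to snoRNAs and many microRNAs. All 9 sites of these listed genes rose (8 of Meg3 and 1 of Mirg, none of Rian in the table), 100% beside 15.1% rising over all nuclear sites. Their median fitted change was 3.71 and their median observed log2 ratio 4.45, beside medians of 0.57 and 0.67 over the noncoding sites. Dio3os, at the Dio3 side of the cluster and not on that list, had a site that did not pass. The 3′-most Meg3 site, at an annotated transcript end (chr12:109571700-109571724, plus strand), measured 54.0, 135, 174, 279, 228 and 245 CPM. It had reached its later level by P0, and its call (fitted change 1.91, SE 0.50, adjusted p = 0.0254) was lost without E13.5 or E15.5 and with days in place of stage order.

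The other 7 Meg3 sites were highest at P21. The site at chr12:109568280-109568310 measured 3.69, 33.0, 43.8, 58.5, 75.2 and 156 CPM (fitted change 3.71, SE 0.69, adjusted p = 0.00749, lost without P21). Another, at chr12:109559155-109559189, measured 0.790, 9.81, 12.7, 19.7, 30.3 and 72.2 CPM (fitted change 4.46, SE 0.68, adjusted p = 0.00387, kept in every fit that left out 1 library). From the 5′-most site to the 3′-most the fitted changes were 4.74, 4.46, 3.08, 3.99, 3.96, 3.71, 3.32 and 1.91. The 3′-most site thus had the smallest change of the 8. The site at chr12:109559155-109559189, with 4.46, also lies at an annotated transcript end. The calls at chr12:109558873-109558889 and chr12:109560907-109560927 were also lost without P21, the latter also without E13.5. With days in place of stage order, those at chr12:109558873-109558889 and chr12:109563076-109563093 were lost.

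Summed over the 8 sites, Meg3 measured 65.6, 213, 287, 441, 436 and 656 CPM (fitted change 2.77, adjusted p = 0.00775, kept in every fit that left out 1 library). Mirg, at the 3′ side of the cluster (chr12:109749438-109749455, plus strand), measured 5.53, 11.6, 12.9, 18.4, 14.2 and 23.5 CPM (fitted change 1.62, SE 0.48, adjusted p = 0.0392). Its call was lost without E13.5, E15.5, E18.5 or P21, with days in place of stage order and with each set of columns alone.

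Several rising genes are host to microRNA hairpins. MicroRNAs are cut from such primary transcripts by Drosha, and pairing of the seed, bases 2 to 8, with target transcripts is the main determinant of what they repress. The list of named host genes had 13 entries, of which 5 had sites in the table. Of their 21 sites 15 rose (71.4%, beside 15.1% of all nuclear sites) and 0 fell (17 had an unadjusted p under 0.05). The 21 sites had a median fitted change of 2.99 and a median observed log2 ratio of 3.14. The rises lay in 2 genes, Mir124-2hg and Mir124a-1hg, host genes of miR-124, the abundant microRNA of neurons.

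Mir124-2hg had 13 sites, of which 11 rose. At its main site (chr3:17799521-17799589, plus strand) it measured 105, 147, 143, 215, 252 and 408 CPM, with E15.5 and E18.5 close together and P21 highest (fitted change 1.82, SE 0.22, adjusted p = 0.00214). The other 10 rising sites had larger fitted changes, on both sides of it, but the test for a shift, which covered the 2 sites that held 5% or more of its tags, did not pass (adjusted p = 0.9999). The site at chr3:17795310-17795334 measured 5.79, 18.8, 16.9, 14.3, 34.8 and 78.4 CPM (fitted change 2.99, SE 0.56, adjusted p = 0.00749, lost without P21), and 5 sites between 6727 and 8317 bases from the gene start had fitted changes of 4.71 to 5.08. The 3 rising sites 3′ of the main site had 2.81 to 2.91. Without P21, 8 of the 11 calls were lost, without E13.5 2, without E15.5 or E18.5 1, and with the first columns alone 2. Those at the main site, at chr3:17798219-17798238 and at chr3:17799921-17799937 were kept in every fit that left out 1 library.

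Mir124a-1hg had 4 rising sites of 5. Its strongest (chr14:64593935-64593961, plus strand) measured 37.4, 73.3, 92.9, 125, 313 and 331 CPM, and the next (chr14:64592897-64592924) 25.5, 52.7, 60.0, 113, 214 and 223 CPM. Both rose at each stage, with little change from P6 to P21 (fitted change 3.23, SE 0.31, adjusted p = 0.0015 at each), and both calls were kept in every fit that left out 1 library. The 2 other calls were lost without E13.5 or P21, 1 of them also without E18.5 or P6, with days in place of stage order and with the first columns alone. Mir17hg, host of the miR-17 cluster of dividing cells, measured 39.0, 29.4, 37.0, 34.3, 16.6 and 16.3 CPM (fitted change -1.24, SE 0.43, adjusted p = 0.0649). Mir9-3hg rose and fell within the series, at 3.16, 17.8, 29.8, 36.2, 26.2 and 11.8 CPM, which a straight line cannot follow (adjusted p = 0.497).

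Matching hairpins of RefSeq (GRCm38.p6) to the genes by position and strand gave 64 hairpins in 29 of the 591 genes, which include Meg3 and Mirg but neither Mir124-2hg nor Mir124a-1hg. Mature miR-124 sequences were missing from the microRNA reference used. The absence of these 2 rising genes therefore says nothing about whether they hold hairpins, and the counts that follow leave them out. With tags summed per gene 9 of the 29 rose and 2 fell, beside 136 rising and 30 falling of 589 noncoding genes tested. Over all 12791 genes 16.9% rose and 11.7% fell. The median fitted change of the 29 was 0.83, against 0.62 over all noncoding genes tested. The mature sequences below belong to 6 host genes that changed and are described next, and to Mir17hg for contrast, with the seed in capitals. They were chosen after the values of their hosts were seen, and those of the other changed hosts (Meg3, Mirg, A230057D06Rik, 3110039I08Rik and Rmst) are not printed. Some have further hosts among the genes: miR-9-5p in C130071C03Rik and Mir9-3hg and miR-129-5p in Mir670hg, none of which passed, and miR-135a-5p in Rmst, which fell.
let-7b-5p: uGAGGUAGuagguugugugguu
let-7c-5p: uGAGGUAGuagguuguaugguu
miR-29b-3p: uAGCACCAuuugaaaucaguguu
miR-29c-3p: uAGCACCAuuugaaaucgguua
miR-9-5p: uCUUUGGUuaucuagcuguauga
miR-129-5p: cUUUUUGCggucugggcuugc
miR-138-5p: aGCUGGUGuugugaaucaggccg
miR-135a-5p: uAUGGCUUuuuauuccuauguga
miR-17-5p: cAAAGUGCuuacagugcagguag
miR-20a-5p: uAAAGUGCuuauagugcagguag
The let-7 pair share 1 seed, the miR-29 pair another, and miR-17 and miR-20a yet another. The tags measure the polyadenylated host RNA, and mature microRNAs were not measured.

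A330023F24Rik, which holds miR-29b-2 and miR-29c (chr1:195037884-195037903, plus strand), measured 4.48, 7.23, 4.73, 12.4, 19.2 and 115 CPM. The P21 library stood far above the rest (ratio 25.7, interval 15.9 to 44.5; fitted change 4.60, SE 0.74, adjusted p = 0.00454), and the call was lost without it. The site lay 783 and 269 bases downstream of the 2 hairpins. Gm3764, which holds miR-9-1 (chr3:88229941-88229959, plus strand), measured 1.58, 6.45, 15.4, 25.7, 52.4 and 34.0 CPM, highest at P6 (ratio 21.5; fitted change 4.28, SE 0.78, adjusted p = 0.00702). Its call was kept in every fit that left out 1 library, and its site lay 14273 bases from the hairpin.

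Lncppara, which holds let-7c-2 and let-7b (chr15:85707505-85707522, plus strand), measured 0.527, 0.775, 7.19, 6.67, 10.3 and 15.5 CPM. It was near the floor in the first 2 libraries and above it in the others (ratio 29.5, interval 7.80 to 249; fitted change 4.12, SE 0.90, adjusted p = 0.0134, lost without E13.5 or P21). Gm3294, which holds miR-129-1, measured 0.527, 1.03, 1.64, 1.91, 2.40 and 9.90 CPM (ratio 18.8, interval 4.85 to 161.0; fitted change 3.82, adjusted p = 0.00766, lost without P21). C78859, which holds miR-138-2, measured 2.63, 2.84, 3.70, 5.72, 6.24 and 15.8 CPM (fitted change 2.54, adjusted p = 0.0106, lost without P21). All 3 ended the series at their highest level. D030055H07Rik, which holds miR-135a-1, went the other way, from 3.16 to 0.535 CPM (fitted change -2.56, adjusted p = 0.0382, lost without any 1 library but P0).

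RNAs that organise the nucleus or the X chromosome rose or did not pass. Of 34 sites in 7 of the 9 listed genes 10 rose (29.4%) and 0 fell (14 had an unadjusted p under 0.05). Over all nuclear sites 15.1% rose, and over the noncoding sites 23.8%. The 34 sites had a median fitted change of 0.94 and a median observed log2 ratio of 1.27. Neat1, the scaffold of paraspeckles (chr19:5842303-5842324, minus strand), measured 5.53, 14.7, 14, 11.8, 25.7 and 72.0 CPM, highest at P21 (fitted change 3.03, SE 0.56, adjusted p = 0.00736, lost without P21). Firre, which anchors X-linked and other loci, measured 15.5, 24.3, 26.1, 27.3, 48.5 and 62.3 CPM at its main site (chrX:50555749-50555770, minus strand), with a rise at each step (fitted change 1.88, SE 0.31, adjusted p = 0.00515, lost without P21). Its other site had a fitted change of 1.68 (adjusted p = 0.0258, lost without E13.5, E15.5 or P6, with days in place of stage order and with the first columns alone).

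Jpx, an activator of Xist, had 2 rising sites of 4, with fitted changes of 2.41 and 2.04 (adjusted p = 0.0114 and 0.0347), both lost without E13.5 or P21 and the second also without E15.5, E18.5 or P6. Xist itself, which coats the inactive X chromosome, measured 53.2, 78.0, 53.4, 129, 65.8 and 36.7 CPM at its main site (fitted change -0.17, SE 0.68, adjusted p = 0.879). It was highest in P0 and E15.5, the 2 libraries highest in lens markers. None of its 5 sites passed (0 also at an unadjusted p under 0.05), and the sex of the animals is not given in the sources used here.

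Malat1, an abundant nuclear RNA whose mature end is formed by RNase P rather than by polyadenylation, had 14 sites, the most of any gene. The strongest (chr19:5800536-5800565, minus strand) measured 44.0, 53.2, 39.5, 66.1, 73.5 and 108 CPM (fitted change 1.24, SE 0.30, adjusted p = 0.0204). The second (chr19:5798396-5798518) measured 14, 20.1, 27.1, 17.5, 38.2 and 67.2 CPM (fitted change 1.99, SE 0.43, adjusted p = 0.0127). Both were highest at P21. Over the 14 sites the fitted changes ran from 0.79 to 2.10 and 5 passed, all 5 lost without E13.5 or P21. The site at the annotated end (chr19:5795690-5795711) measured 8.69, 18.3, 14.4, 19.7, 16.1 and 20.6 CPM and did not pass (fitted change 0.79, SE 0.46, adjusted p = 0.241).

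The Malat1 sites differed in sequence from noncoding sites at large. No hexamer was found before 10 of the 14, against 12.7% of noncoding sites. Of 13 with known bases after the edge, 9 began with 3 A directly after it, against 12.9% of 425 noncoding sites in other genes and 12.9% of sites in coding exons. This count was chosen after the sequences were seen. By the A-rich measure used above, 3 of the 13 (23.1%) were followed by such a stretch, against 8.22% of noncoding sites. The 5 Malat1 sites that rose are shown with the 40 bases before the edge in lower case and the 20 after it in capitals, in order along the transcript. The site at chr19:5798396-5798518 has AATAAA before the edge and no A run after it, unlike the other 4.
Malat1 chr19:5800536-5800565: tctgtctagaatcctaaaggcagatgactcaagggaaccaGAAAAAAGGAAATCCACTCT
Malat1 chr19:5799932-5799954: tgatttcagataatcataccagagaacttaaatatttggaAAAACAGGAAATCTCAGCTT
Malat1 chr19:5799252-5799274: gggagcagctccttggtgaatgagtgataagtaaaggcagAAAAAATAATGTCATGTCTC
Malat1 chr19:5798396-5798518: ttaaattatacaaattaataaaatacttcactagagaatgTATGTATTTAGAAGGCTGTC
Malat1 chr19:5796639-5796721: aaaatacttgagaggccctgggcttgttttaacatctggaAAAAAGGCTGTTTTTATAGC
A run of A that follows a cut is where an oligo(dT) primer could bind the RNA inside its body, and whether these tags mark ends or internal priming was not tested.

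**Figure D4:**
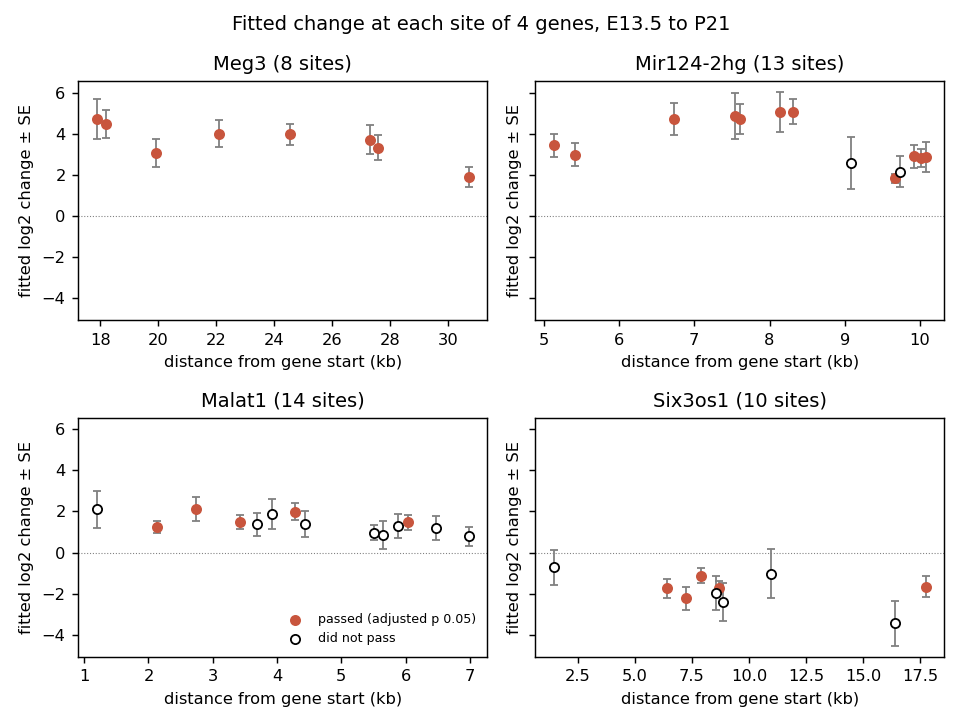
Fitted log2 change from E13.5 to P21 (y axis, bars are SE) against the distance of each site from the start of its gene (x axis, kb) for Meg3 (8 sites), Mir124-2hg (13), Malat1 (14) and Six3os1 (10). Filled points passed the test. Meg3 is lowest at its 3′-most site, 1.91, Malat1 stays between 0.79 and 2.10, and every Six3os1 point is under 0.

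Of other imprinted genes, 2 of 8 sites rose and 0 fell, a share of 25% beside 24.0% of all nuclear sites (3 had an unadjusted p under 0.05), with a median fitted change of 0.65 and a median observed log2 ratio of 0.72. Peg13, a noncoding RNA of the imprinted Kcnk9 locus (chr15:72805602-72805635, minus strand), measured 105, 161, 137, 179, 207 and 255 CPM. It was lowest at E13.5 and highest at P21 (fitted change 1.11, SE 0.22, adjusted p = 0.01), a call lost without E13.5 or P21. Snhg14, the long transcript of the Prader-Willi and Angelman locus, rose at 1 of 2 sites, from 3.42 to 19 CPM (fitted change 2.18, SE 0.61, adjusted p = 0.0336), lost without E13.5, E15.5, P6 or P21 and with the first columns alone. None of 4 Kcnq1ot1 sites passed (fitted changes of -1.36 to 1.52, lowest adjusted p = 0.136).

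Noncoding neighbours of eye and brain transcription factor genes moved in both directions. Of 21 sites in 8 of 21 listed genes 3 rose (14.3%), in 3 genes, and 8 fell (38.1%), also in 3 genes. Over all nuclear sites 15.1% rose and 8.96% fell. The 21 sites had a median fitted change of -1.67 and a median observed log2 ratio of -1.64. Six3os1, divergent from Six3, a homeobox gene needed for the eye field and retinal progenitors, held 5 of the falls. Its strongest site (chr17:85610491-85610516, minus strand) measured 254, 245, 232, 269, 139.8 and 113 CPM, level until P0 and lower at P6 and P21 (fitted change -1.12, SE 0.35, adjusted p = 0.0475). The site at chr17:85609698-85609723 measured 74.3, 80.0, 66.4, 52.1, 35.1 and 24.1 CPM (fitted change -1.72, SE 0.32, adjusted p = 0.00719, lost without P21).

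The other Six3os1 calls were lost in 3 to 5 of the fits that left out 1 library, and that of the strongest site in 5 and with the second columns alone. All 10 of its fitted changes were negative, from -3.45 to -0.72. Zeb2os, antisense to the neuronal zinc finger gene Zeb2, fell at both of its sites. The stronger (chr2:45113740-45113774, plus strand) measured 24.5, 24.0, 19.5, 8.89, 13.7 and 2.68 CPM (fitted change -2.37, SE 0.68, adjusted p = 0.0363) and the other had a fitted change of -1.77 (adjusted p = 0.0284). Both calls were lost without E13.5, E15.5 or P21, the first also without E18.5 and with the second columns alone, and the second also without P6 and with the first columns alone. Rmst fell at 1 of 3 sites (fitted change -2.39, adjusted p = 0.0214, lost without E13.5, E15.5, P6 or P21).

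The 3 rises in that list were in Lhx1os, Otx2os1 and Pantr1, and each was kept in every fit that left out 1 library. Lhx1os, beside Lhx1, a homeobox gene of horizontal cells (chr11:84535812-84535830, plus strand), measured 5.27, 18.6, 27.7, 35.3, 48.5 and 47.6 CPM (fitted change 2.66, SE 0.56, adjusted p = 0.0118, lost with days in place of stage order). Otx2os1, opposite in direction to the photoreceptor and bipolar gene Otx2 (chr14:48793332-48793348, plus strand), measured 0, 0.775, 1.23, 1.91, 13.4 and 9.90 CPM (fitted change 6.18, SE 1.07, adjusted p = 0.00586). Vax2os was level up to P6 and high at P21, at 41.3, 47.5, 31.9, 40.7, 39.4 and 184 CPM, and a straight line did not pass (fitted change 1.79, SE 0.62, adjusted p = 0.0662).

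Host genes of snoRNAs, which guide the modification of ribosomal RNA from introns of these transcripts, gave few calls. Of 18 sites in 15 of 20 listed genes 0 rose and 2 fell (11.1%, beside 24.0% of all nuclear sites; 3 had an unadjusted p under 0.05), with a median fitted change of -0.35 and a median observed log2 ratio of -0.54. Gas5 measured 63.5, 68.4, 55.5, 40.7, 33.6 and 41.2 CPM (fitted change -0.94, SE 0.29, adjusted p = 0.045, lost without any 1 library but P0). Snhg17 measured 46.1, 54.5, 41.1, 40.3, 28.6 and 17.1 CPM at the site that fell (fitted change -1.40, SE 0.38, adjusted p = 0.0287, lost without E15.5, P6 or P21 and with the second columns alone), and its other site did not pass. Snhg20 did not pass at either site, though 1 of them ran from 12.6 CPM at E13.5 to 46.7 CPM at P0 and 6.42 CPM at P21. Zfas1, from 94.8 to 69.3 CPM, and Snhg5, from 84.3 to 49.8 CPM, did not pass (adjusted p = 0.183 and 0.199).

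Broadly expressed and growth-linked RNAs gave 0 rises and 2 falls in 13 sites of 5 of 12 listed genes (3 had an unadjusted p under 0.05). That is 15.4% in both directions, beside 24.0% of all nuclear sites. The 13 sites had medians of -0.32 fitted and -0.40 observed. The falls were Lockd and Gm26917, the latter in ribosomal RNA sequence (84.8 to 15.8 CPM; fitted change -1.94, adjusted p = 0.0173, lost without E13.5 or P21). Tug1, needed for photoreceptor maturation in mice, had 5 sites and none passed. At its strongest it measured 61.3, 52.7, 55.1, 53.1, 50.2 and 46.6 CPM (fitted change -0.32, SE 0.23, adjusted p = 0.324). Crnde peaked at P0, with 37.7, 39.8, 55.5, 74.0, 17.3 and 11 CPM, and did not pass (adjusted p = 0.308). Oip5os1 is on that list too, but stands in the table as 1700020I14Rik and is not in these counts.

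Many noncoding genes lie on the strand opposite a coding gene, and 382 of the 843 sites did. Of 380 of these tested, 72 rose (18.9%) and 30 fell (7.89%), beside 15.1% and 8.96% of all nuclear sites. In both directions together 26.8% were called, close to the 24.0% of all nuclear sites. With the exonic tags of each gene summed, 136 noncoding genes rose and 30 fell of 589 tested, beside 16.9% rising and 11.7% falling over all 12791 genes. In 224 pairs both the noncoding and the opposite coding gene were tested. Both rose in 11 pairs and both fell in 4, the noncoding gene rose and the coding gene fell in 4, and the reverse held in 1. The noncoding gene alone rose in 19 and fell in 8, and the coding gene alone rose in 29 and fell in 14. In 134 pairs neither passed. Over the 224 pairs the fitted changes had Pearson r of 0.22 and Spearman rho of 0.19, a description across genes, which share libraries and are not replicates.

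**Figure D5:**
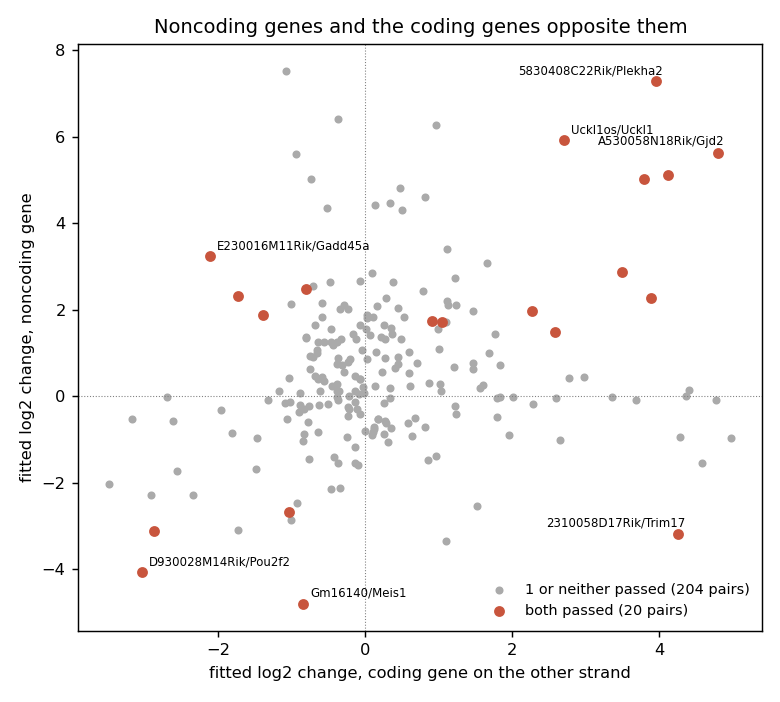
Fitted log2 change from E13.5 to P21 of the noncoding gene (y axis) against that of the coding gene on the opposite strand (x axis), 1 point per pair, 224 pairs; red points are the 20 pairs in which both genes passed. Of the red points, 11 lie at the upper right, 4 at the lower left and 5 where the signs differ.

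Of the 6 pairs with the highest noncoding levels 3 noncoding genes fell (Six3os1, Brip1os and Cct6a) and 1 coding gene rose (Bace1). Six3os1 summed to 549.8, 558, 508, 553, 268 and 197 CPM (fitted change -1.45, SE 0.40, adjusted p = 0.0321) and Six3, on the other strand, to 463, 458, 422, 494, 292 and 269 CPM (fitted change -0.77, SE 0.27, adjusted p = 0.066). Both were lower at P6 and P21 than at each earlier stage, and the call of Six3os1 was lost without E15.5, E18.5, P6 or P21. Brip1os had a fitted change of -1.69 (SE 0.48, adjusted p = 0.0367) and opposite Ints2, an Integrator subunit gene, -1.48 (SE 0.54, adjusted p = 0.0766). Gm16536 had a fitted change of 0.25 (SE 0.20, adjusted p = 0.37) opposite Bace1, the beta-secretase gene, which rose from 33.4 to 101 CPM (fitted change 1.60, SE 0.29, adjusted p = 0.00833, lost without P21). Cct6a and Ptpmt1, both coding by their RefSeq symbols, had fitted changes of -0.53 and 0.07 opposite Psph at 0.18 and Kbtbd4 at -0.01. The calls of Brip1os and Cct6a were lost without any 1 library but P0. The sixth was Xist (fitted change 0.03, adjusted p = 0.969), whose opposite coding gene Gm26992 had no exonic site to test.

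The pairs in which both changed most were chosen after their values were seen. D930028M14Rik (fitted change -4.07, adjusted p = 0.0023) lay opposite Pou2f2, which measured 73.7, 31.0, 22.6, 15.6, 8.17 and 9.37 CPM (fitted change -3.04, SE 0.40, adjusted p = 0.00371). Both fell at each stage up to P6, and both calls were kept in every fit that left out 1 library. Uckl1os summed to 4.21, 15.2, 7.60, 20, 99.2 and 297 CPM and Uckl1 to 16.6, 16.8, 12.7, 22.6, 44.9 and 103 CPM. The noncoding RNA was the lower of the 2 until P0 and the higher from P6 on (fitted changes 5.92 and 2.71, the latter call lost without P21). These are counts of ends, so the comparison does not depend on transcript length.

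A530058N18Rik (5.63, a call lost without P21) lay opposite Gjd2, which measured 1.32, 12.4, 15.6, 24.8, 63.9 and 93.4 CPM (fitted change 4.80, SE 0.65, adjusted p = 0.00384). 5830408C22Rik (7.28) lay opposite Plekha2, which measured 6.58, 7.23, 10.7, 10.5, 64.8 and 67.4 CPM (fitted change 3.96, SE 0.67, adjusted p = 0.00694). In both pairs the coding gene was the more abundant and had its high libraries at P6 and P21, as did the noncoding gene. The pairs that went apart were 2310058D17Rik (-3.17) with Trim17 (4.26), E230016M11Rik (3.23) with Gadd45a (-2.11), 9330151L19Rik (2.31) with Gm49384 (-1.73), 4930581F22Rik (2.49) with Dcps (-0.80) and Gm4673 (1.87) with Lsr (-1.40). In each of these 5 pairs at least 1 of the 2 calls was lost without some single library: 2310058D17Rik without E13.5, E15.5 or P21, Gadd45a without E13.5, E15.5, E18.5 or P6, Gm49384 without E13.5 or P21, Dcps and Gm4673 without any 1 library but P0, 4930581F22Rik without P21 and Lsr without E13.5 or P21. Trim17 lost its call without E15.5 or E18.5 and was under the level filter without P0 or P21.

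No noncoding gene passed the test for a shift between its own sites. Of 123 noncoding genes with at least 2 sites of at least 5% of the gene's tags, 0 were called (edgeR diffSpliceDGE, Simes test per gene, adjusted over all 4823 genes), beside 0.394% of all genes tested. At an unadjusted p under 0.05 there were 7 noncoding genes, and 297 of all genes. The lowest adjusted p was 0.0719, in A430035B10Rik, where 1 site took 0, 2.00, 3.57, 1.20, 3.74 and 22.9% of the gene's tags in stage order. Its share was high in P21 only, and the gene was named after its values were seen.

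Of 12 genes with at least 5 sites, 2 were called at each site, 4 at none and 6 at some. All 8 Meg3 sites and all 5 sites of A930001M01Rik rose (fitted changes of 3.38 to 5.55 in the latter, 4 of its 5 calls lost without P21, and 2 of these also without E13.5 or P6), while none of 8 Gm37494 sites passed. Rab10os rose at 2 of 5 sites, 1 of them, at chr12:3250358-3250377, from 14.7 to 46.3 CPM (fitted change 1.81, SE 0.32, adjusted p = 0.00605, kept in every fit that left out 1 library), and the call at the other was lost without any 1 library but P0. 1700020I14Rik was the gene with a site in each direction.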

How the data were processed

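The deposited values are counts of tags per poly(A) site, 2 columns for each stage per the file headers, and 1 deposited enrichment score per site, used only to describe sites. BWA 0.7.5a-r405 and mm10 are the aligner and the build named in the submitters' processing notes. Site clustering, the score's formula, duplicate removal and the meaning of the 2 columns of a stage are not given in the sources used here. The columns of a stage were added. The 18 mitochondrial sites, 0.591% of all tags, were left out. Sites were placed by their 3′ edge on GENCODE M21 with Python 3.11.15. The members and lists were chosen with earlier results of these data known. Libraries held 3266638 to 4635128 nuclear tags.

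Trends were fitted with edgeR 4.0.16 in R 4.3.3 (limma 3.58.1) over all nuclear sites with at least 1 CPM in at least 2 libraries, TMM scaling, and stage order 1 to 6 as 1 linear term, leaving 4 residual degrees of freedom. SE was derived from the change and F as |change|/sqrt(F). A call needed a Benjamini-Hochberg adjusted p of at most 0.05. The scripts were tested on simulated data. Shares were compared with two-sided exact permutation tests (scipy 1.17.1). Alternatives were DESeq2 1.42.0, other scalings and filters, days in place of stage order, each column alone, and each library left out in turn. Named sites were the 10 with most tags, the 10 largest rises and falls with a mean of at least 5 CPM and at least 4 of 5 steps in 1 direction, up to 4 genes per list by level, and the 6 opposite-strand pairs with the highest noncoding level; others are said to be chosen after their values were seen, or come from the lists. microRNA hosts found by position were chosen after their values were seen.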

Additional observations from a re-analysis of the deposited data

How the results depend on the processing

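Of the 200 rises, scaling, filter, tool, stage coding, single columns and summing per gene left 136 to 211, and leaving out 1 library gave 54 to 216 (99 without E13.5, 54 without P21). The 52 falls became 33 and 34 with the first and the second columns alone, and 11 to 71 with 1 library left out (16 without E13.5, 21 without E15.5, 27 without P6, 11 without P21). With tags summed per gene the unit is the gene and not the site. There 136 genes rose, the low end of the first range above, and 30 fell. The 200 rising and 52 falling sites lay in 147 and 41 genes. Without both E15.5 and P0, an alternative added after seeing the data, 156 rose and 28 fell. The share at all noncoding sites had rho of 1 under each setting run and r of 0.905 to 0.976. For the antisense share, rho was 0.9 to 1 with 1 library left out, and missed the threshold at 0.9. Site choice gave 0 calls in each setting run. No result reversed. Of the 127 named sites, calls were lost at 42 without P21, 30 without E13.5, 19 without E15.5, 14 without P6, 10 without E18.5 and 0 without P0, 12 with days in place of stage order, and 14 and 8 with the first and the second columns alone. No paired analysis was possible because each stage had 1 sample. Depth limits the thin sites: below 3 tags in a library, 0.616 to 0.953 CPM, a level is not told from 0.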
